A study of Oryza sativa Indica Group with 8 samples.

Results

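The 10 rice genes described here encode enzymes of photorespiration and catalases. They were listed by MSU locus identifier for that function, with earlier results of these data known. They comprise the phosphatase PGLP1 (LOC_Os04g41340) and 3 glycolate oxidases, GLO1 (LOC_Os03g57220), GLO3 (LOC_Os04g53210) and GLO4 (LOC_Os07g05820). They also include 3 catalases, CatA (LOC_Os02g02400), CatB (LOC_Os06g51150) and CatC (LOC_Os03g03910). The other members are the P protein of glycine decarboxylase (GDC-P, LOC_Os01g51410), the serine hydroxymethyltransferase SHM1 (LOC_Os03g52840) and the hydroxypyruvate reductase HPR1 (LOC_Os02g01150). All 10 were among the 35961 loci of the deposited tables. Whether the list holds every glycolate oxidase or catalase gene of rice was not checked. Sums, shares and ratios below cover the listed genes only. The identifiers place them on chromosomes 1, 2, 3, 4, 6 and 7 of the Nipponbare genome (MSU v7.0). The tables give neither names nor start and end positions. In the RefSeq table of another rice assembly none of the 10 identifiers was found. The names of 5 members (GLO1, GLO3, GLO4, CatA and CatB) were found as synonyms, all 5 on the chromosome that the identifier gives. CatC, GDC-P, SHM1, HPR1 and PGLP1 had no such match.

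Photorespiration recycles the phosphoglycolate that arises when Rubisco fixes oxygen in place of carbon dioxide. Phosphoglycolate phosphatase removes the phosphate in the chloroplast, glycolate oxidase turns glycolate into glyoxylate in the peroxisome and releases hydrogen peroxide, and catalase breaks that peroxide down. In the mitochondrion, glycine decarboxylase and serine hydroxymethyltransferase turn glycine into serine, and hydroxypyruvate reductase, again in the peroxisome, leads the carbon back toward glycerate. The pathway runs at a high rate in illuminated leaves of C3 plants such as rice.

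RNA-seq was performed on leaves of OE5, a line that overexpresses OsPRR37, and of its recipient parent GL, the indica variety Guangluai 4. OsPRR37 is a pseudo-response regulator of the rice circadian clock. The study describes the OsPRR37 allele of GL as loss-of-function, so a regained function cannot be told apart from an excess of it. Both genotypes shared the growth chamber setting (28°C, light for 14 h and dark for 10 h a day) and the age of 15 days, and the top expanded leaves were taken in the morning. Each genotype had 2 libraries, which the study calls biological replicates; the labels write OE, and the line name OE5 comes from the study's methods. OE5 is a single transgenic line, so an effect of the overexpressed gene cannot be told apart from other changes in that line. Leaves were taken at a single time of day, so a different level cannot be told apart from a shifted daily rhythm.

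The total of counts on genes was 47685773 and 48284992 in OE5, against 43423801 and 45708220 in GL. The 10 members took 1.54% and 1.39% of all counts in OE5-1 and OE5-2, against 1.58% and 1.49% in GL-1 and GL-2. The TMM factors, which correct for RNA composition, were 1.04 and 1.06 for the OE5 libraries and 0.990 and 0.914 for the GL libraries. TMM therefore lowered OE5 relative to GL against the deposited TPM values (transcript levels scaled for gene length and library total). Over the 19280 genes tested, the median log2 fold change was -0.01 with TMM and 0.14 with library totals alone. Log2 fold changes below, OE5 over GL, come from edgeR (quasi-likelihood test, TMM), while levels are in TPM. A gene was called when its Benjamini-Hochberg adjusted p was under 0.05 and its fold change over 1.5.

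Most of the 10 genes were expressed at a very high level in both genotypes, and CatA was the only member called, higher in OE5. Of the 10 members, 9 passed the filter on low expression and were tested, and GLO3 did not. Of the 9, 1 was called (11.1%), against 3.39% of all genes tested. CatA, with a log2 fold change of 0.95, was the 1 member called higher, where 2.11% of all genes tested were called higher. No member was called lower (0 of 9), where 1.28% of all genes tested were. By adjusted p alone the counts were the same for the members, and the shares of all genes tested were 3.85% in all, 2.27% higher and 1.58% lower. By unadjusted p under 0.05, 2 members were lower in OE5 (CatC and GDC-P), where 7.02% of all genes tested were. DESeq2 passed the same 2 by adjusted p alone, where it passed 2.22% of all genes tested in that direction. Of the 9 tested members, 2 had a log2 fold change above 0 and 7 had one below 0. Their median was -0.12, against -0.01 over all genes tested. With library totals alone these medians were 0.03 and 0.14. In bulk leaves, fewer cells of a type and less RNA per cell cannot be told apart.

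In TPM, 7 of the 10 genes lay above the 99th percentile of all listed loci in every library. No leaf marker is named in the tables and the series holds no other tissue, so the tissue label was not checked. The rank of these members alone cannot check it. SHM1 had the highest level of the 10, at ranks 39 to 44 in the 4 libraries. PGLP1 followed at ranks 59 to 72. GDC-P, CatC and GLO1 lay between ranks 76 and 110, and HPR1 and GLO4 between ranks 130 and 155. CatA was at ranks 230 and 273 in OE5, against 601 and 473 in GL, and CatB at ranks 2349 and 2313 in OE5, against 2995 and 3215 in GL. The ranges of GDC-P and CatC over libraries overlapped in both genotypes, as did those of HPR1 and GLO4. Within each OE5 library, GDC-P lay above CatC (1198 against 1157 TPM and 1051 against 952 TPM). In GL their order turned between the libraries. CatC and GLO1 overlapped in OE5 only. In GL, CatC lay above GLO1 in both libraries.

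**Figure D1:**
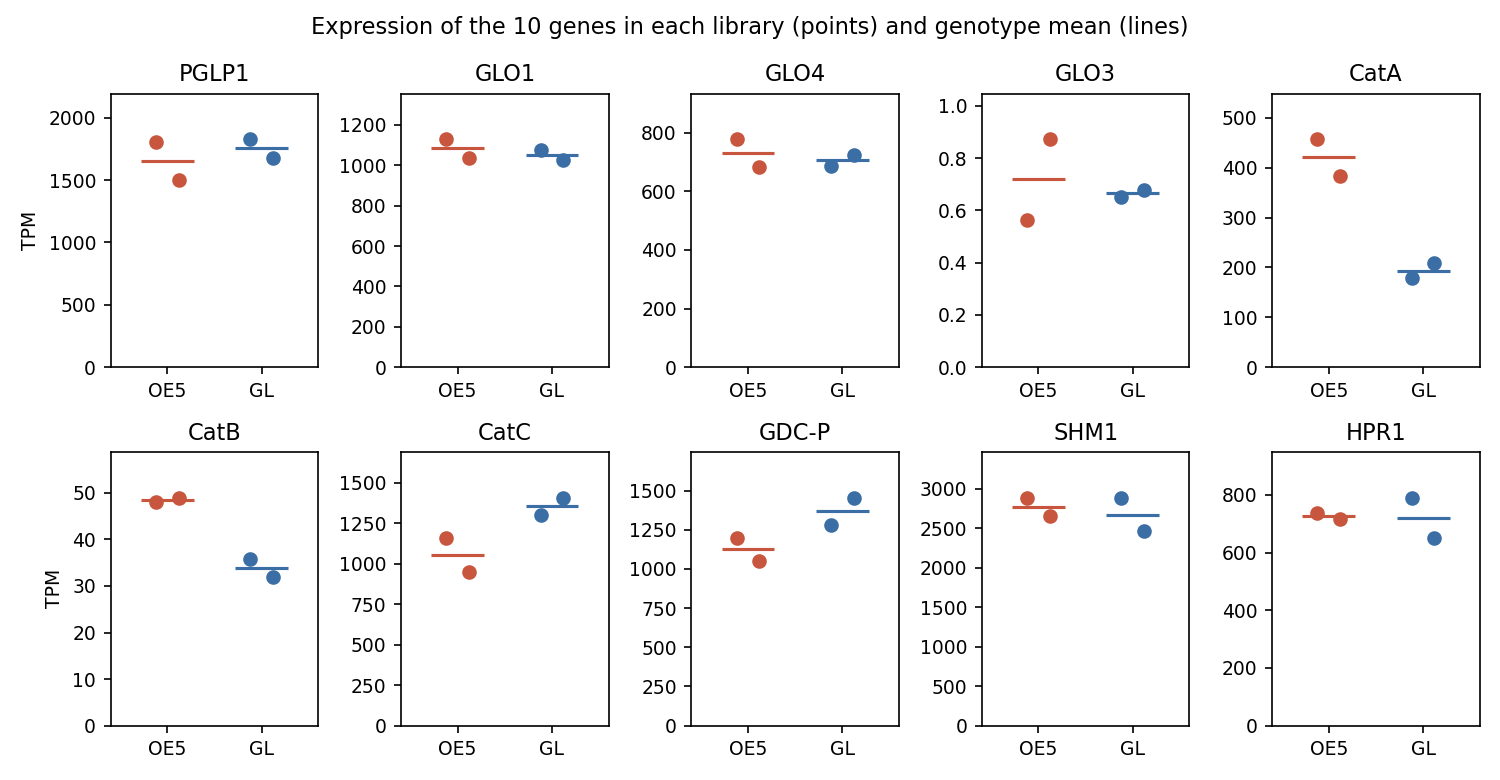
TPM of the 10 genes in each library (points, with 2 libraries per genotype) and the mean of each genotype (lines), OE5 left of GL, each axis starting at 0. Both OE5 points of CatA (458 and 384 TPM) lie above both GL points (179 and 208 TPM), CatC and GDC-P lie lower in OE5, and the points of GLO1, GLO4, SHM1, HPR1 and PGLP1 overlap.

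Of the 3 catalases, CatA was called, while CatB had a positive and CatC a negative log2 fold change that missed the threshold. Catalases are tetrameric haem enzymes, and in plants the isoforms differ in tissue, in daily rhythm and in the source of the peroxide that they remove.

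CatA had 458 and 384 TPM in OE5, against 179 and 208 TPM in GL. Both OE5 libraries were above both GL libraries, and the lowest ratio between an OE5 and a GL library was 0.88 on the log2 scale of TPM, while libraries of the same genotype differed by 0.25 in OE5 and 0.22 in GL. In normalized counts, CatA averaged 19000 ± 2489 in OE5 and 9802 ± 1405 in GL (SD, n = 2 each). Its fold change was 1.94, or 0.95 on the log2 scale (standard error 0.15, 95% interval 0.62 to 1.29, edgeR adjusted p = 0.00944). Among the 407 genes called higher in OE5, CatA was at rank 262 by fold change, so most of those genes changed by more. DESeq2 gave CatA a log2 fold change of 0.96 with an adjusted p of 2.52e-08. The edgeR call was lost when OE5-1 was left out, with a log2 fold change of 0.81 and an adjusted p of 0.101. In that fit 194 genes were called in all, against 653 with all libraries. Over its 16 alternatives the adjusted p of CatA ran from 7.33e-10 to 0.101, and its log2 fold change from 0.81 to 1.12.

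CatB was the least abundant of the listed catalases, with 48.1 and 49.0 TPM in OE5, against 35.9 and 31.8 TPM in GL. The libraries of the genotypes did not overlap. Its log2 fold change was 0.36 (standard error 0.11, 95% interval 0.12 to 0.60), and the adjusted p of 0.12 by edgeR missed the threshold. With library totals in place of TMM, the log2 fold change of CatB was 0.50 with an adjusted p of 0.0404, still under the fold limit, in a fit that passed 3.65% of all genes higher by adjusted p alone. Without GL-1 its adjusted p was 0.0126. Over the alternatives its adjusted p ran from 0.0126 to 0.653.

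CatC gave most of the summed TPM of the listed catalases in every library. It had 1157 and 952 TPM in OE5, against 1303 and 1409 TPM in GL. Both OE5 libraries were below both GL libraries. The log2 fold change of CatC was -0.53 (standard error 0.16, 95% interval -0.87 to -0.18), a fold change of 0.695, with an adjusted p of 0.118 by edgeR. DESeq2 gave CatC a log2 fold change of -0.52 and an adjusted p of 0.00698, under the fold limit. The test called CatC lower only when GL-1 was left out (log2 fold change of -0.61, adjusted p = 0.0125 by edgeR), a fit that called 1270 genes in all, against 653 with all libraries. Over the alternatives the adjusted p of CatC ran from 0.00698 to 0.745.

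The summed level of the 3 catalases was 1663 and 1385 TPM in OE5, against 1519 and 1649 TPM in GL. It averaged 1524 ± 196 TPM in OE5 and 1584 ± 92.5 TPM in GL (SD, n = 2 each), a difference of -59.7 TPM, which was smaller than the pooled SD of 153 TPM. The log2 difference of the catalase sum was -0.06 with all libraries, and its direction rested on single libraries, being -0.19 without OE5-1, 0.07 without OE5-2, -0.12 without GL-1 and -0.00059 without GL-2. A two-sided exact permutation test over the libraries gave p = 1. With TMM-normalized counts over gene length, the summed catalase level was lower in OE5 by a log2 difference of -0.22.

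The make-up of the catalase pool, unlike its sum, differed between the genotypes by more than the spread between replicates. CatA gave 27.5% and 27.7% of the catalase TPM in OE5, against 11.8% and 12.6% in GL. The share averaged 27.6% ± 0.147 in OE5 and 12.2% ± 0.574 in GL (SD, n = 2 each), a difference of 15.4 percentage points with a pooled SD of 0.419. CatC gave 69.6% and 68.7% in OE5, against 85.8% and 85.4% in GL, a difference of -16.5 percentage points with a pooled SD of 0.464. CatB gave 2.89% and 3.54% in OE5, against 2.36% and 1.93% in GL. None of the 3 shares overlapped between the genotypes, where the TPM of 53.7% of all genes tested did not overlap either. Shares within a library do not depend on the scaling between libraries, and leaving out single libraries gave a difference for CatA of 15.0 to 15.8 percentage points. The exact permutation test gave p = 0.333 for each of the 3 shares (0.533 adjusted over the 8 shares computed), which is the smallest two-sided p that 2 libraries against 2 allow. Since the shares sum to 100% they are not independent.

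The log2 ratio of CatA to CatC was -1.34 and -1.31 in OE5, against -2.86 and -2.76 in GL. The ratio was thus 2.80-fold higher in OE5 (log2 difference of 1.49, pooled SD 0.053, exact permutation p = 0.333, adjusted over the 9 ratios computed 0.5). Leaving out single libraries, an alternative chosen after seeing the data, gave a log2 difference of 1.43 to 1.54. The log2 ratio of CatA to CatC varied less between libraries of a genotype (0.020 SD in OE5 and 0.072 SD in GL) than that of CatB to CatC (0.22 and 0.20). CatA to CatB had a log2 ratio of 3.25 and 2.97 in OE5, against 2.32 and 2.71 in GL, without overlap.

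**Figure D2:**
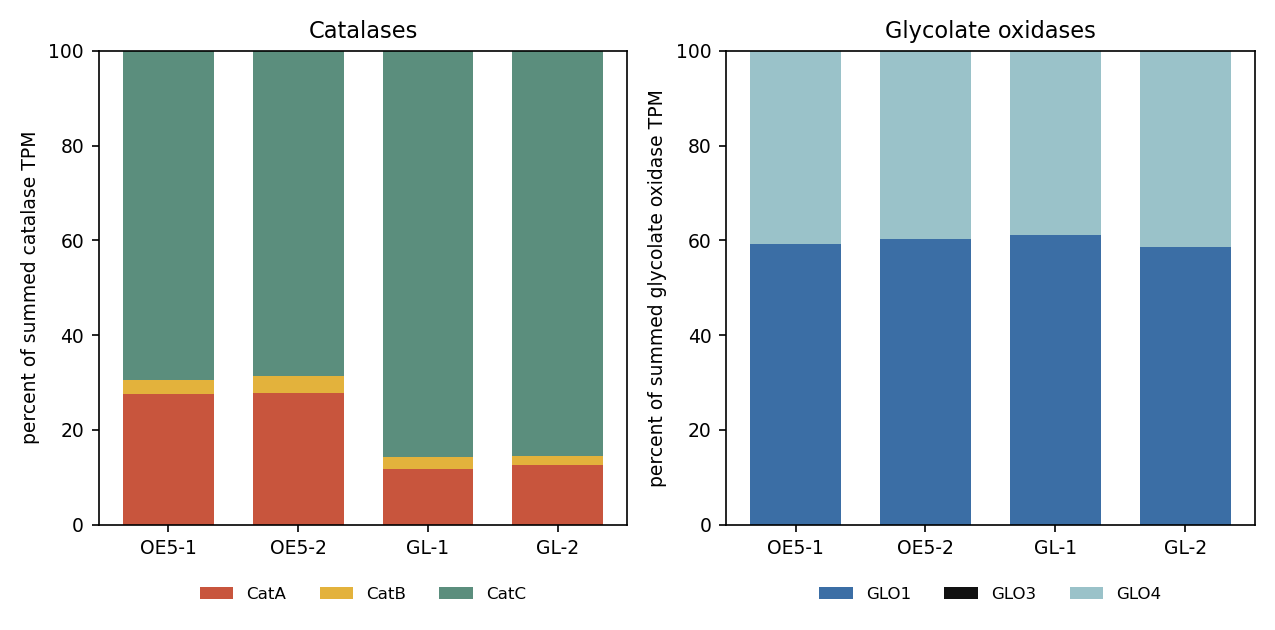
Percent of the summed TPM of the listed catalases (left) and of the listed glycolate oxidases (right) that each gene gives. Each bar is 1 library, OE5 left of GL. CatA takes 27.5% and 27.7% of the catalase bars in OE5, against 11.8% and 12.6% in GL, while GLO1 takes 58.6% to 61.0% of the glycolate oxidase bars in all 4 libraries and GLO3 is too low to be seen.

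The enzymes upstream of the catalases showed no call. PGLP1, the phosphatase that opens the pathway, had 1804 and 1500 TPM in OE5, against 1829 and 1680 TPM in GL. Its libraries overlapped in TPM. The log2 fold change of PGLP1 was -0.25 (standard error 0.15, 95% interval -0.58 to 0.09, adjusted p = 0.509 by edgeR).

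Glycolate oxidase is the peroxisomal flavoenzyme whose reaction produces the peroxide. GLO1 had 1130 and 1037 TPM in OE5, against 1076 and 1027 TPM in GL, and GLO4 had 778 and 682 TPM in OE5, against 686 and 725 TPM in GL. Both genes overlapped between the genotypes in TPM. The log2 fold change was -0.12 for GLO1 (standard error 0.14, 95% interval -0.42 to 0.19, adjusted p = 0.788 by edgeR), and -0.11 for GLO4 (standard error 0.14, 95% interval -0.43 to 0.21, adjusted p = 0.808 by edgeR). The signs of GLO1 and GLO4 turn positive, to 0.03 each, with library totals in place of TMM. Both intervals of this fit, with all libraries, lay within the 1.5-fold limit on either side.

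GLO3 was close to the lower end of what these libraries measure. It had 38 and 60 counts in OE5, against 41 and 44 counts in GL, or 0.564 and 0.873 TPM in OE5, against 0.650 and 0.680 TPM in GL. Its exact Poisson 95% intervals, which cover counting error only, were 26.9 to 52.2 and 45.8 to 77.2 counts in OE5-1 and OE5-2, and 29.4 to 55.6 and 32.0 to 59.1 counts in GL-1 and GL-2. All 4 intervals overlap. The total of counts exceeds the read pairs that the study reports for every library, so both mates of a pair appear to be counted. These intervals are then too narrow even for counting error. The TPM sum of GLO3 did not reach 2 in either genotype, so it was not tested. Without the filter its log2 fold change was -0.04 with a 95% interval from -0.74 to 0.66 (adjusted p = 0.979 by edgeR).

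Together the 3 listed glycolate oxidases gave 1909 and 1720 TPM in OE5, against 1762 and 1753 TPM in GL (exact permutation p = 1). The log2 difference of this sum was 0.04, and it was -0.03 without OE5-1 and 0.12 without OE5-2. The make-up of this listed group differed by less than the spread between replicates. GLO1 gave 59.2% and 60.3% of the TPM of these 3 genes in OE5, against 61.0% and 58.6% in GL. The difference of -0.079 percentage points was smaller than the pooled SD of 1.34 (exact permutation p = 1). GLO3 gave at most 0.0508% in any library. The ratio of summed catalases to summed glycolate oxidases was 0.871 and 0.805 in OE5, against 0.862 and 0.941 in GL, with overlap (exact permutation p = 0.667 on the log2 ratio, 0.75 adjusted over the 9 ratios).

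Neither gene of the mitochondrial step was called. The P protein binds glycine and releases its carboxyl group, and SHM1 joins the remaining carbon to a second glycine. GDC-P had 1198 and 1051 TPM in OE5, against 1279 and 1455 TPM in GL. Both OE5 libraries were below both GL libraries in TPM, although the raw counts of 139728 in OE5-1 and 139723 in GL-1 were nearly the same. The log2 fold change of GDC-P was -0.45 (standard error 0.16, 95% interval -0.80 to -0.09, adjusted p = 0.203 by edgeR). DESeq2 gave it an adjusted p of 0.0329 at a log2 fold change of -0.44, and edgeR without GL-1 one of 0.0319 at -0.56, both under the fold limit. Over the alternatives the adjusted p of GDC-P ran from 0.0319 to 0.839.

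SHM1, the most abundant member, had 2878 and 2661 TPM in OE5, against 2889 and 2461 TPM in GL, with overlap. Its log2 fold change was -0.11 (standard error 0.15, 95% interval -0.44 to 0.23, adjusted p = 0.831 by edgeR). The sign of SHM1 turns positive, to 0.03, with library totals in place of TMM.

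The log2 ratio of GDC-P to SHM1 was -1.26 and -1.34 in OE5, against -1.18 and -0.76 in GL. The genotypes did not overlap, but the GL libraries differed from each other by more than GL-1 differed from OE5-1, and the difference of -0.34 had a pooled SD of 0.21 (exact permutation p = 0.333, 0.5 adjusted over the 9 ratios). As a share, GDC-P gave 29.4% and 28.3% of the TPM of both genes in OE5, against 30.7% and 37.2% in GL. The difference of -5.07 percentage points was -1.83 without GL-2 and -8.30 without GL-1. The summed level of both genes was 4076 and 3712 TPM in OE5, against 4168 and 3916 TPM in GL, with overlap (exact permutation p = 0.667). The log2 difference of this sum was -0.05, and it was -0.12 without OE5-1, 0.01 without OE5-2, -0.01 without GL-1 and -0.10 without GL-2.

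HPR1, which reduces hydroxypyruvate to glycerate, had 739 and 716 TPM in OE5, against 791 and 651 TPM in GL. The GL libraries lay on either side of the OE5 libraries. The log2 fold change of HPR1 was -0.14 (standard error 0.14, 95% interval -0.46 to 0.17, adjusted p = 0.734 by edgeR), and its sign turns positive, to 0.02, on the log2(TPM + 1) scale by limma.

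**Figure D3:**
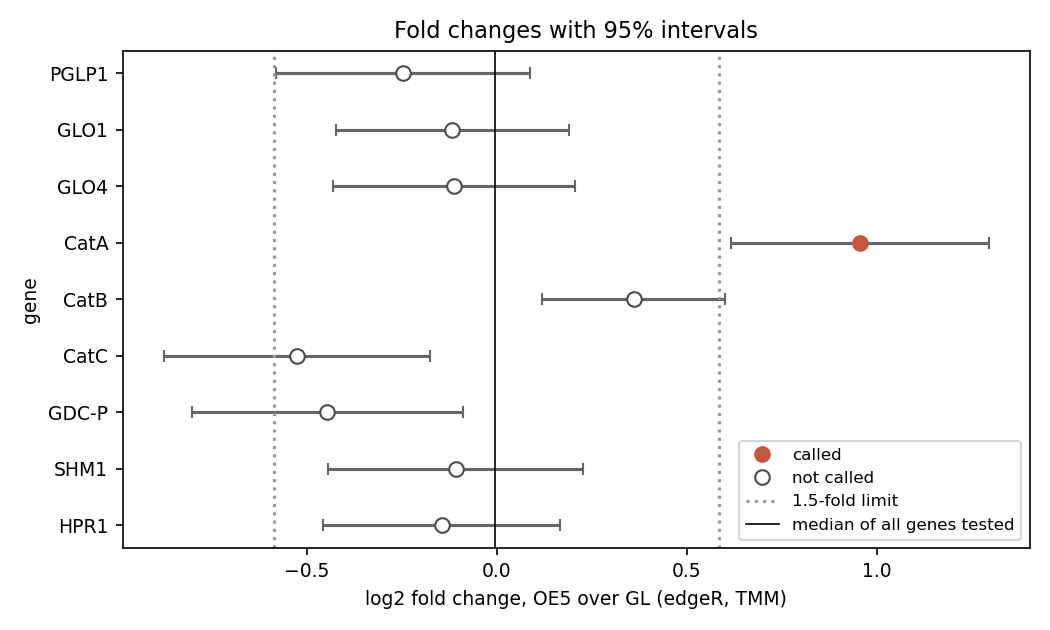
Log2 fold changes, OE5 over GL, of the 9 tested genes from edgeR with TMM, with 95% intervals (bars), the 1.5-fold limit on either side (dotted lines) and the median of all genes tested (solid line). CatA alone is called, at 0.95, and the intervals of PGLP1, GLO1, GLO4, SHM1 and HPR1 lie within the dotted lines.

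In the main fit, 5 of the 9 tested members had a 95% interval of the fold change within the 1.5-fold limit on either side. These were PGLP1, GLO1, GLO4, SHM1 and HPR1, with PGLP1 inside by a small margin. With another filter on low expression (filterByExpr), the lower bound of PGLP1 was -0.586, past the log2 limit of 0.585 in size. Leaving out OE5-1 widened each of these intervals past the limit. For CatB, CatC and GDC-P the interval of the main fit crossed the limit on 1 side. These 3 and CatA had an unadjusted p under 0.05 by edgeR, which makes 4 of 9, where 15.2% of all genes tested had one. Of these 4, 2 were higher in OE5 (CatA and CatB), where 8.23% of all genes tested were. In TPM, the libraries of the genotypes did not overlap for the same 4 of the 9 members, against 53.7% of all genes tested. By direction, 2 were higher in OE5, where 45% of all genes tested were, and 2 lower, where 8.63% were. In TMM-normalized counts 7 members did not overlap, against 44.6% of all genes tested, with 2 of them higher in OE5, where 22.2% of all genes tested were, and 5 lower, where 22.5% were. GLO1, PGLP1 and HPR1 were separated in this scale but not in TPM.

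The summed level of the 10 genes was 10191 and 9033 TPM in OE5, against 10068 and 9649 TPM in GL. It averaged 9612 ± 818 TPM in OE5 and 9858 ± 297 TPM in GL (SD, n = 2 each), or 0.961% and 0.986% of all TPM, a difference within the spread between replicates (exact permutation p = 1). The log2 difference was -0.04 with all libraries, -0.13 without OE5-1, 0.05 without OE5-2, -0.01 without GL-1 and -0.07 without GL-2, so its direction turned with 1 library. With TMM-normalized counts over gene length it was -0.20. OE5-1 was above OE5-2 in TPM for all members but GLO3 and CatB.

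**Figure D4:**
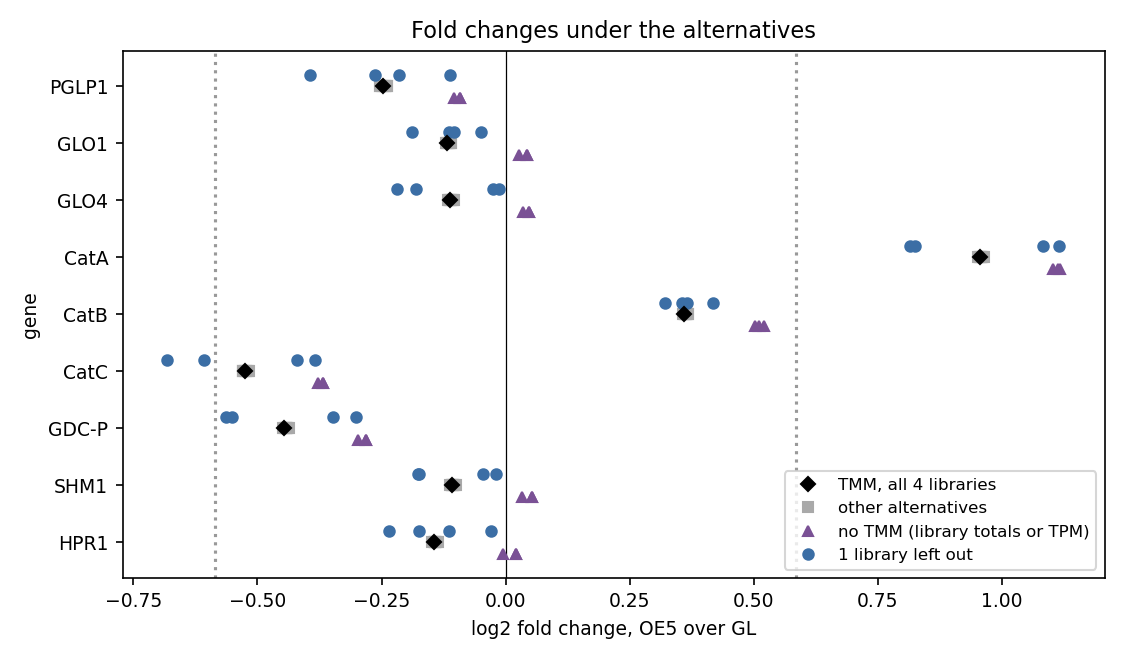
Log2 fold changes, OE5 over GL, of the 9 tested genes with all 4 libraries and TMM (diamonds), with each library left out (circles), without TMM (triangles) and under the other alternatives (squares), with the 1.5-fold limit dotted. CatA stays between 0.81 and 1.12, CatC and GDC-P stay below 0, and GLO1, GLO4, SHM1 and HPR1 lie on both sides of 0.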

How the data were processed

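RNA-seq of OE5 and GL leaves was used, with 2 libraries per genotype. Bisulfite samples of both genotypes were not analysed here. The authors trimmed reads with fastp 0.20.1, mapped them to Nipponbare (MSU v7.0) with HISAT2 2.1.0 and used TPMCalculator for quantification. The deposited counts are unscaled reads per MSU locus, while deposited TPM values correct for gene length and library total. Handling of strand and of reads that match several places is not given in the sources used here, so levels of related loci within a family are less certain.

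The main test was edgeR 4.0.16 under R 4.3.3 (TMM, robust estimateDisp, robust glmQLFit, glmQLFTest, prior count 2), on 19280 genes whose TPM sum over replicates reached 2 in OE5 or in GL, and p-values were adjusted over all of them. Standard errors were derived from the F statistic and the log2 fold change, and intervals use the test's total degrees of freedom. DESeq2 1.42.0 and limma 3.58.1 (limma-trend, log2(TPM + 1)) were alternatives. The study itself found its differentially expressed genes with DESeq2. Sums, shares and ratios of TPM were compared with exact permutation tests over libraries, for 4 sums, 8 shares and 9 ratios. These p-values were adjusted within each of the 3 families. The fits were tested on simulated data. How many plants each library pooled is not given in the sources used here, so p-values measure the spread between these samples. Replicates differed by more than sampling noise (chi-square over its degrees of freedom, 38.2 in OE5 and 128 in GL). Both mates of a read pair appear to be counted, which raises these values.

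All members are named, with no ranking of other genes. The members and lists were chosen with earlier results of these data known. The tables do not pair identifiers with names, so no other gene of the pathway, no leaf marker and not the overexpressed gene is reported here.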

Additional observations from a re-analysis of the deposited data

How the results depend on the processing

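Under the alternatives with all libraries, CatA alone was called (1 of the tested members), except with a fold change over 2, where 0 were called. Leaving out each library in turn gave 0 to 2 called members: without OE5-1 none was called (higher calls 0 to 1), and without GL-1 CatC was called lower (lower calls 0 to 1). By adjusted p alone the count was 1, and it was 3 with DESeq2 (CatC and GDC-P, 2 lower, besides CatA), 2 with library totals (2 higher, CatA and CatB) and 2 without a filter (1 lower, CatC). Over all genes tested, adjusted p alone passed 3.85% with all libraries, 5.11% with DESeq2, 4.55% with library totals and 4.63% without a filter. The members' count was 0 to 4 with a library left out (0 to 2 higher and 0 to 2 lower), where 1.01% of all genes passed without OE5-1 (0 members) and 10.1% without GL-1 (4 members). The median log2 fold change of the members, -0.12 with TMM, was 0.0267 with library totals, 0.0424 by limma with a pseudocount of 1 and 0.0424 with 0.1, where the median of all genes was 0.14, 0.14 and 0.16. The signs of GLO1 (0.0267, 0.0424 and 0.0424), GLO4 (0.0340, 0.0474 and 0.0474) and SHM1 (0.0324, 0.0536 and 0.0536) turned under these 3 settings, and that of HPR1 under limma (0.0200 and 0.0200). These settings leave out the TMM factors. CatA, CatB, CatC, GDC-P and PGLP1 kept their signs under all 16 alternatives. Over all genes, 653 were called (407 higher and 246 lower), against 1207 without a filter, 429 and 370 by limma, and 194 to 1270 with a library left out; library totals called 623 higher and 158 lower. Members without overlap numbered 4 in TPM and 7 in TMM-normalized counts. With TMM-normalized counts over length, the log2 difference of the summed TPM was -0.200 for all members, -0.117 for glycolate oxidases, -0.222 for catalases and -0.216 for GDC-P with SHM1, against -0.0388, 0.0441, -0.0602 and -0.0546 in TPM. Leaving out a library gave log2 differences of -0.126 to 0.0482 for all members, -0.0309 to 0.119 for glycolate oxidases, -0.192 to 0.0715 for catalases and -0.122 to 0.0128 for GDC-P with SHM1, so each sum changed sign. The GDC-P share difference of -5.07 percentage points was -1.83 without GL-2 and -8.30 without GL-1.

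With the replicate block, 1 member, CatA, was called (log2 fold change of 0.96, adjusted p = 0.0109 by edgeR), and no call changed. The shared numbers are not stated to mark a batch, and over genes the deviations of libraries that share a number correlated with r = 0.116 (Pearson) and rho = -0.123 (Spearman). With the pairing crossed, an alternative chosen after seeing the data, 1 member was called as well. In that fit the lower bound of PGLP1 was -0.631 on the log2 scale, past the 1.5-fold limit. Where a genotype had a single library, it was assumed to vary like the other genotype. With 2 libraries a genotype, exact tests cannot reach a p under 0.333, and GLO3 is limited by its counts.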
